A study of Mus musculus with 4 samples.

Results

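The cyclins and kinases that drive meiotic division were followed in mouse testis cells through 10 genes, chosen by name: the cyclins Ccna1, Ccna2, Ccnb1, Ccnb2 and Ccnb3, the kinase Cdk1, its activating phosphatase Cdc25c, and the kinases Aurka, Aurkc and Plk1. All 10 were found among the 18419 genes of the deposited table. Droplet single-cell RNA sequencing of 3′ transcript ends was applied to testis cells of outbred ICR mice, and transcripts were counted by their unique molecular identifiers (UMIs). By the study's methods, seminiferous tubules were cut up, washed to remove spermatozoa and digested, so class shares are not those of whole testis. Library A0 came from vehicle controls given water, A10 from mice given alginate oligosaccharides (AOS, breakdown products of a seaweed polysaccharide) at 10 mg/kg by gavage, B0 from mice given busulfan alone, an alkylating drug that destroys germ cells, and BA10 from mice given busulfan and then AOS at 10 mg/kg. Busulfan was injected once at 40 mg/kg at 3 weeks of age, and AOS dosing lasted 5 weeks by the results text of the study and 2 weeks by its methods. Each group was 1 library made from 6 mice pooled before capture, so no difference between groups could be tested, and every interval given covers counting error only.

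Entry into the meiotic divisions depends on Cdk1, a kinase that is active only when bound to a cyclin. B-type cyclins are the usual partners of Cdk1 at division, Ccna2 acts in S phase and mitosis of proliferating cells, and Ccna1 is the germ cell form of cyclin A and is needed in male mice for pachytene spermatocytes to enter the first meiotic division. Cdc25c removes the inhibitory phosphates from Cdk1. Plk1 and Aurka act at centrosomes and on the spindle, and Aurkc is the germ cell Aurora kinase of the chromosomal passenger complex. In the male, spermatogonia divide by mitosis, primary spermatocytes pass through a long prophase in which they store many transcripts, and both divisions then follow quickly to give round spermatids.

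In the GENCODE M21 annotation of the mm10 build, Ccna1 lies at chr3:55045469-55055501, Ccna2 at chr3:36564865-36572150, Ccnb1 at chr13:100778650-100786570, Ccnb2 at chr9:70407692-70421547, Ccnb3 at chrX:6979652-7041619, Cdk1 at chr10:69335146-69352938 and Aurka at chr2:172356190-172370535, all on the minus strand. Aurkc lies at chr7:6995300-7003091 and Plk1 at chr7:122159439-122169873, both on the plus strand. All 9 are protein-coding genes with 0 annotated genes overlapping them on the same strand.

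Promoters are shown because many division genes carry a CCAAT box and a cell cycle genes homology region (CHR, TTTGAA), and because most of these genes moved together over the clusters described further on. The RefSeq promoter table (build GRCm38.p6, windows of 250 bases before to 50 bases after a gene's start) matched 8 of the 10 genes. Searched on both strands, with overlap of the 2 motifs allowed, TTTGAA occurred in 4 of these 8 windows (Aurka, Ccnb2, Cdk1 and Plk1) and in 17.9% of all 32851 windows. CCAAT occurred in 7 of the 8, all but Ccnb3, and in 37.4% of all windows. Below are the 120 bases before the RefSeq start of 5 members, 5′ to 3′ on the gene's strand. RefSeq and GENCODE starts differ, so that the stretch of Ccna1 lies wholly inside its GENCODE span given above and those of Ccnb1 and Cdk1 lie partly inside theirs. Capitals mark CCAAT, its complement ATTGG and TTTGAA.
Ccnb1, chr13:100786487-100786606, minus strand: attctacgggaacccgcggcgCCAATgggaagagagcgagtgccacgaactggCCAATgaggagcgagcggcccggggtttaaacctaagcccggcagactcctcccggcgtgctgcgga
Ccnb2, chr9:70421555-70421674, minus strand: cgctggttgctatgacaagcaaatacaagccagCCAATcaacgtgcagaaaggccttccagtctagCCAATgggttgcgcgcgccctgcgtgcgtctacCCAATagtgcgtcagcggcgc
Cdk1, chr10:69352913-69353032, minus strand: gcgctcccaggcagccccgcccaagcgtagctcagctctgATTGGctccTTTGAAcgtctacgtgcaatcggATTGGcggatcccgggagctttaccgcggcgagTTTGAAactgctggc
Plk1, chr7:122159315-122159434, plus strand: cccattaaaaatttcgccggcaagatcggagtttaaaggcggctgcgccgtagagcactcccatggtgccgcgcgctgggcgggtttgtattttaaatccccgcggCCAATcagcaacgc
Ccna1, chr3:55055056-55055175, minus strand: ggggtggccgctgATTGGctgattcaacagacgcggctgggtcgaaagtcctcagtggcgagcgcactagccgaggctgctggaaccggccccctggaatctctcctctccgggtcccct

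The CHR letters nearest the start lay at or just past it in 3 genes, shown here as 30 bases with TTTGAA in capitals, counting the first base of the gene in RefSeq as 1. They began at base 5 in Ccnb2, 33 in Aurka and 31 in Plk1, and in Cdk1 at 15 bases before the start.
Ccnb2, chr9:70421533-70421562, minus strand: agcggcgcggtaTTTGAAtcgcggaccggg
Aurka, chr2:172370521-172370550, minus strand: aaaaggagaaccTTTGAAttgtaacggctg
Plk1, chr7:122159453-122159482, plus strand: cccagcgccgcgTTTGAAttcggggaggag
A match describes letters only, and neither binding nor promoter activity was measured in these libraries.

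A0 and A10 held 8941 and 9682 cells, B0 held 4659 and BA10 held 3778, with median UMIs per cell of 12685, 10948, 4214 and 17989 in this order. The lowest UMI count of a cell also differed, at 7687, 6716, 2985 and 9013. The study's methods name a forced number of 5000 cells per library, which these numbers do not match, so how cells were called is not known, and cell numbers, lowest counts and class shares depend on it. Cells were clustered without the members and the other division genes, and clusters were named from cell type markers as spermatogonia-like, spermatocyte-like, spermatid-like and somatic-like (Leydig, Sertoli or macrophage). Spermatocyte-like cells made up 36.0% of A0 and 37.0% of A10, against 4.81% of B0 and 84.5% of BA10, and spermatid-like cells 61.1%, 60.6%, 0.172% and 5.03%. Somatic-like cells made up 75.0% of B0, 3.39% of BA10 and under 0.1% of each control library, and every level over all cells of a library moves with this mix. In all, 374 of 26683 barcodes occurred in more than 1 library.

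Levels are UMIs of a gene scaled to a library total of 1000000 (CPM), summed over all cells of a library. Because 3′ counting gives about 1 UMI per captured transcript and capture differs between genes, levels are compared between libraries and cells. Between genes they are used only for level filters and to name the highest genes of each list.

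Among the cyclins, the germ cell cyclin Ccna1 stood at 238 CPM in A0 and 231 in A10, against 106 in B0 and 385 in BA10. BA10 was highest and B0 lowest, and the counting intervals of the 4 libraries did not overlap. Ccnb1, the mitotic and meiotic B-type cyclin, stood at 175 CPM in A0 and 163 in A10, against 94.2 in B0 and 215 in BA10, in the same order. Ccnb2, a second B-type cyclin, stood at 291 CPM in A0 and 292 in A10, against 164 in B0 and 380 in BA10, and A0 and A10 did not differ beyond counting error. The S phase and mitotic cyclin Ccna2 went the other way, with 0.889 CPM in A0 and 0.863 in A10, against 7.07 in B0 and 1.96 in BA10. Here B0 was highest and both control libraries overlapped. Ccnb3, a cyclin of early meiotic prophase, had between 30 and 36 UMIs in each library, which gave 0.199 CPM in A0 and 0.250 in A10, against 1.26 in B0 and 0.372 in BA10. Only the interval of B0 was separate from all others, though the ratio interval of BA10 over A0 (1.11 to 3.17-fold) also left out 1.

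Cdk1 stood at 66.6 CPM in A0 and 69.5 in A10, against 53.8 in B0 and 137 in BA10. Its activator Cdc25c was the only member with its highest level in a control library, at 20.5 CPM in A0 and 22.5 in A10, against 9.83 in B0 and 16.4 in BA10. The counting intervals of both genes were separate in all 4 libraries.

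Aurka stood at 233 CPM in A0 and 238 in A10, against 124 in B0 and 484 in BA10, with BA10 far above the rest. Aurkc stood at 7.82 CPM in A0 and 10.2 in A10, against 6.79 in B0 and 12.7 in BA10, and the intervals of A0 and B0 overlapped. Plk1 stood at 135 CPM in A0 and 118 in A10, against 55.9 in B0 and 194 in BA10, with separate intervals. Thus 8 of the 10 members, all but Ccna2 and Ccnb3, were lowest in B0 (Aurkc not beyond counting error), and 7 were highest in BA10.

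**Figure D1:**
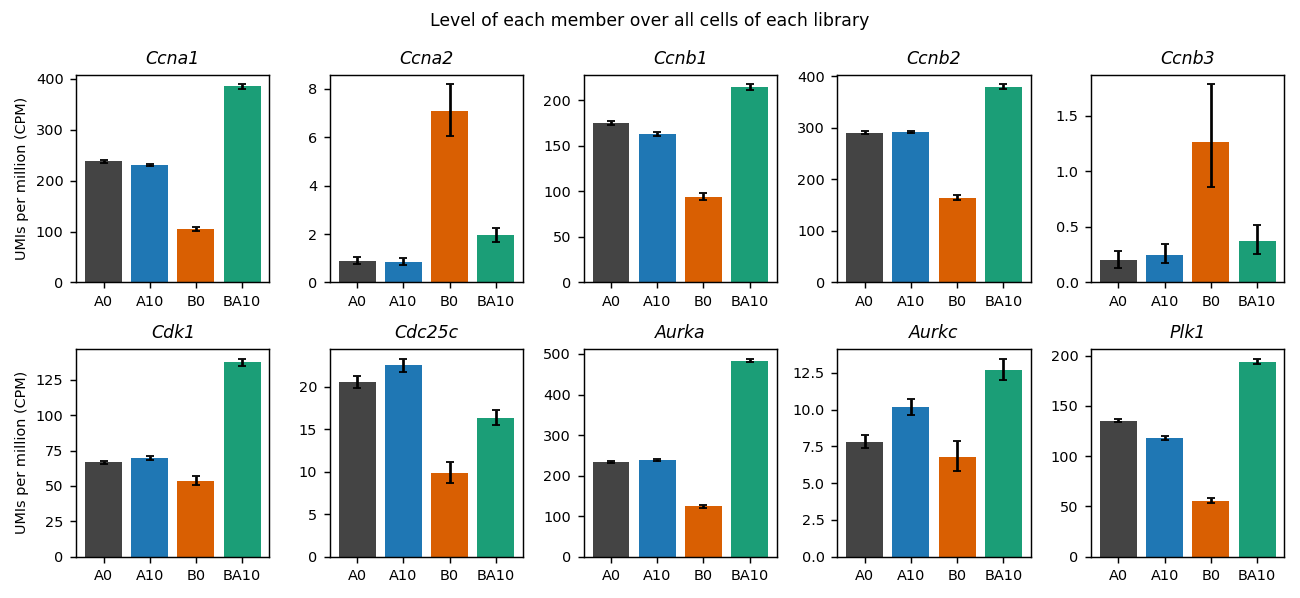
Bars give the level of each member (CPM) over all cells of the libraries A0, A10, B0 and BA10, each axis starting at 0, with exact 95% Poisson intervals that cover counting error only. BA10 is highest for 7 members, B0 is highest for Ccna2 and Ccnb3, and A10 is highest for Cdc25c.

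For AOS without busulfan (A10 against A0), the members lay close to the control. Log2 ratios, taken after adding 1 CPM, ran from -0.20 (Plk1) to 0.34 (Aurkc). Of the 9 members with a mean level of at least 1 CPM over the libraries (Ccnb3 fell below at 0.521), 0 passed a 2-fold difference in either direction, beside 0.0294% (higher) and 0.0808% (lower) of the 13615 genes that met the same filter. Plk1 was lower in A10 in 16 of the 19 clusters that held at least 50 cells of both libraries, with a median log2 ratio of -0.25. Ccnb1 was lower in 15 of them (median -0.14). Aurkc was higher in 15 (median 0.20) and Cdc25c in 14 (median 0.17). Clusters of the same library pair are not replicates, and what these small differences owe to the mice, the libraries or AOS cannot be told apart.

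Busulfan alone (B0 against A0) went with lower levels of most members. Falls of 2-fold or more were seen for Plk1 (log2 ratio -1.26) and Ccna1 (-1.16), while Ccnb1 (-0.89), Ccnb2 (-0.82), Aurka (-0.90), Cdc25c (-0.99) and Cdk1 (-0.30) stayed inside that limit. Ccna2 alone passed it upward, at 7.96-fold without the added CPM (95% interval 6.32 to 10.0). Thus 1 member was higher, beside 43.5% of all genes tested, and 2 were lower, beside 19.9%. With ratios centred on their median over the genes tested (0.58), with equal weight per cell or with thinning, 6 were lower. The median log2 ratio of the 9 members was -0.89, against 0.58 for all genes tested. These pooled levels mix cell types, and fewer germ cells cannot be told apart from less of these transcripts per cell in them.

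In mice given AOS after busulfan (BA10 against B0), 6 members were higher by 2-fold or more, beside 14.9% of all genes tested: Aurka (log2 ratio 1.95), Ccna1 (1.86), Plk1 (1.78), Cdk1 (1.34), Ccnb2 (1.21) and Ccnb1 (1.18). Ccna2 was lower (-1.45), beside 39.9% of all genes. The median over the members was 1.21, against -0.45 over all genes tested.

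Against the control (BA10 against A0), Aurka (1.05) and Cdk1 (1.03) lay just past a 2-fold rise, beside 14.3% of all genes tested. No member fell by 2-fold, beside 15.3% of genes, and Cdc25c (-0.31) was the only member below A0. When all ratios were shifted so that their median over the genes tested (0.36) was 0, the rises of Aurka and Cdk1 came to 0.69 and 0.67 and no longer passed.

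**Figure D2:**
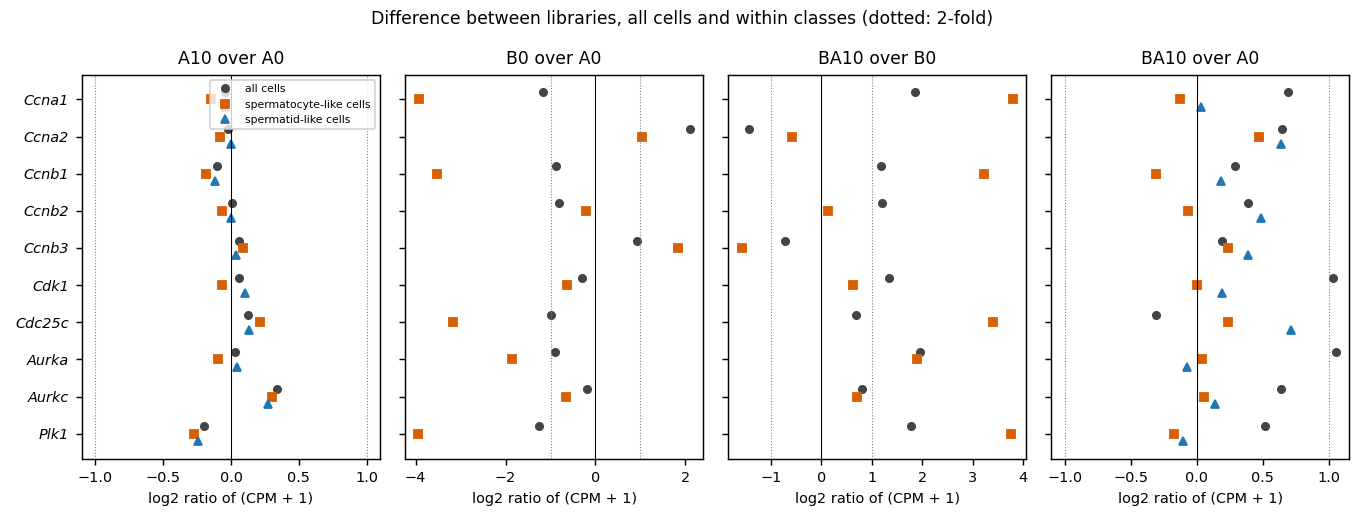
Each panel gives, for a pair of libraries, the log2 ratio of level (CPM + 1) of every member over all cells (circles), spermatocyte-like cells (squares) and, where both libraries held at least 50, spermatid-like cells (triangles), with dotted lines at 2-fold. In BA10 over A0 the circles of Aurka and Cdk1 lie just beyond 2-fold, whereas their squares lie near 0.

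The 2 comparisons with B0 depended on which cells were counted. Among cells above a common limit of 9013 UMIs, B0 kept only 448 of its 4659 cells, of which 355 lay in the unnamed cluster 20, led by the connective tissue genes Dcn and Gsn, and 57 were spermatocyte-like. All 10 members were higher in B0 than in A0 in this set, Ccna1 by a log2 ratio of 0.33 and Plk1 by 0.11. Above the same limit, 0 members differed by 2-fold between BA10 and B0, and Ccna1 (0.37), Aurka (0.54) and Plk1 (0.40) were higher in BA10 while Aurkc (-0.53), Cdc25c (-0.48), Ccnb1 (-0.17) and Ccnb2 (-0.07) were lower. With the Leydig-, Sertoli- and macrophage-like cells left out, a choice made after seeing the data, 9 of 10 members were higher in B0 than in A0, and 0 tested members were 2-fold higher in BA10 than in B0. Of the 1165 B0 cells then left, 932 lay in the unnamed clusters 19 and 20, so the B0 side of both sets is mostly unnamed cells. Without somatic-like cells Ccna2 differed most in both comparisons, at a log2 ratio of 2.95 for B0 over A0 and -2.33 for BA10 over B0.

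**Figure D3:**
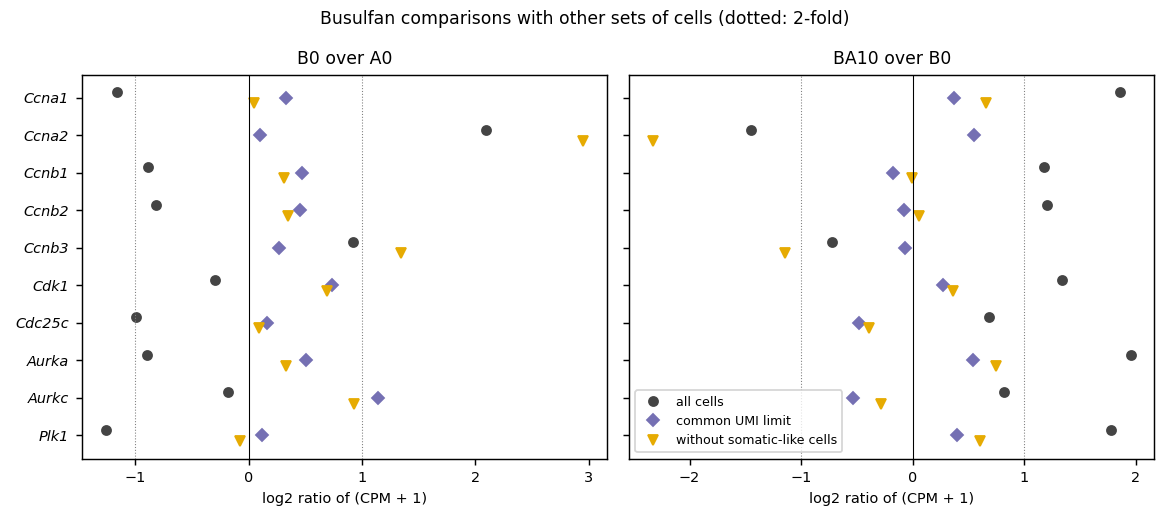
Log2 ratios of level (CPM + 1) of each member for B0 over A0 and BA10 over B0, over all cells (circles), over cells at or above the common limit of 9013 UMIs (diamonds) and without somatic-like cells (triangles), with dotted lines at 2-fold. Of the 6 members past a 2-fold rise in BA10 over B0 over all cells, 0 pass it in the other cell sets.

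Within spermatocyte-like cells the members of BA10 and A0 were close. Ccna1 stood at 436 CPM in A0 and 393 in A10, against 27.8 in B0 and 400 in BA10. Cdk1 stood at 144 CPM in A0 and 138 in A10, against 93.2 in B0 and 144 in BA10. Aurka stood at 498 CPM in A0 and 466 in A10, against 136 in B0 and 512 in BA10. B0 alone was far lower in Ccna1, whereas the other libraries lay within a narrow range for all 3 genes. Ccnb1 (272, 239, 22.6 and 219 CPM in A0, A10, B0 and BA10) and Plk1 (227, 188, 13.9 and 201) followed Ccna1, while Ccnb2 was nearly level in all libraries (407, 390, 353 and 389).

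Between BA10 and A0 in these cells, log2 ratios ran from -0.31 (Ccnb1) to 0.47 (Ccna2), and 0 of 9 members passed 2-fold in either direction, beside 3.94% (higher) and 5.22% (lower) of all genes tested. Between A10 and A0 they ran from -0.27 (Plk1) to 0.30 (Aurkc), with 0 members past 2-fold beside 0.0294% and 0.0734%. In B0 against A0, 5 members were lower by 2-fold or more (Plk1 -3.94, Ccna1 -3.92, Ccnb1 -3.53, Cdc25c -3.16 on 1 UMI in B0, Aurka -1.87), beside 19% of genes, and Ccna2, with 5 UMIs in B0, was higher (1.04), beside 34.1%. The same 5 members were higher in BA10 than in B0, beside 15%, and 0 were lower, beside 32.3%. Here the class drew mostly on different clusters in B0, BA10 and A0. Of the 224 spermatocyte-like cells of B0, 181 lay in cluster 24, with Meiob at 237 CPM and Sycp3 at 2618 CPM, and 42 in cluster 27, beside 1113 cells of BA10. Of the 3191 BA10 cells of the class, all but a few lay in clusters 23, 27 and 30, and those of A0 lay in clusters 0, 1, 3, 4, 12, 17 and 18. At another clustering (resolution 2, or 1000 variable genes) 663 and 726 B0 cells entered the class, and 0 tested members then passed 2-fold in either comparison with B0. Of these cells, 439 and 503 shared a cluster led by haemoglobin genes, Hbb-bs first. Its marker scores for spermatocyte and myoid (muscle) cells were 0.147 and 0.124 at resolution 2, and 0.256 and 0.154 with 1000 variable genes.

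In spermatid-like cells, A10 and A0 gave 0 members past 2-fold, beside 0.0367% (higher) and 0.0514% (lower) of genes, with Plk1 lowest again at -0.24. BA10, with 190 such cells, also had 0 members past 2-fold against A0, beside 8.9% and 5.12%. Cdc25c was the highest of them at 0.72 (44.0 CPM in BA10 against 26.4 in A0), followed by Ccna2 at 0.63 on 6 UMIs and Ccnb2 at 0.49. Of the 190 BA10 cells, 168 lay in cluster 21, which held 2 cells of A0, so this class too drew mostly on different clusters in BA10 and A0.

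The members differed in when along germ cell development they were high. Clusters of the control libraries were placed by falling level of Sycp3, a component of the synaptonemal complex of meiotic prophase. This order was chosen after seeing the data, and all levels in it are descriptions over both control libraries and any other cells of the cluster. The spermatocyte-like control cluster highest in Sycp3 (4, at 899 CPM) held Ccna1 at 46.0 CPM, Ccnb1 at 30.7 and Plk1 at 22.5, but already Ccnb2 at 316 and Cdk1 at 81.5. In the next spermatocyte-like clusters (1 and 18, with Sycp3 at 411 and 367 CPM) Aurka stood at 395 and 401 CPM and Ccna1 at 213 and 222, whereas Ccnb1 was still at 53.7 and 56.6. In CPM, Aurka and Ccna1 were thus far above their level in cluster 4, and Ccnb1 less so. Median UMIs per cell were 11768.5 in cluster 4 against 29749.5 and 31667 in clusters 1 and 18, so this contrast is one of scaled levels. In A0, Ccnb1 had 106 UMIs in 278 cells of cluster 4 and 874 UMIs in 373 cells of cluster 18, which is more per cell.

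All of these genes were high in cluster 12 (Sycp3 at 345 CPM), with Ccnb1 at 368 CPM, Plk1 at 299, Ccna1 at 586, Cdk1 at 260 and Aurka at 689. Among clusters of control cells, this was the highest in CPM for Cdk1, Aurka and Aurkc (19.2 CPM). Beyond it, in clusters 3 and 0, Cdk1 stood lower at 179 and 92.9 CPM, as did Aurka at 614 and 510 and Aurkc at 14.3 and 14.2. Ccnb1 stood higher there at 419 and 421 CPM and Ccnb2 at 500 and 528, while Ccna1 was at 591 and 576 and Plk1 at 309 and 310. In the late spermatocyte-like cluster 0 Cdk1 was thus well below its highest CPM, where Ccnb1 and Ccnb2 had theirs, Ccnb1 without a difference from cluster 3 beyond counting error. These are scaled levels, and median UMIs per cell fell from 31667 in cluster 18 to 12077, 10270.5 and 9704 in clusters 12, 3 and 0. In A0, 410 cells of cluster 12 held 2860 UMIs of Ccnb1 and 3318 of Ccnb2. The 1023 cells of cluster 0 held 5853 and 7080, so per cell neither gene was higher there. The same cells of cluster 12 held 5243 UMIs of Aurka and 121 of Aurkc, against 5442 and 169 in 373 cells of cluster 18. Per cell, cluster 12 was thus not the highest for Aurka and Aurkc. Its Aurkc interval in A0 also overlapped those of clusters 0, 3 and 18.

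In the spermatid-like clusters 8 and 2 (Sycp3 at 88.1 and 44.4 CPM), Ccnb2 was at 426 and 333 CPM, Ccnb1 at 254 and 168, Ccna1 at 280 and 126, Plk1 at 187 and 109, and Cdk1 at 32.6 and 15.9. Cdc25c had its highest control levels there, at 42.7 and 42.4 CPM, against 24.2 in cluster 0 and 16.6 in cluster 3. Spermatid-like cluster 14, close to cluster 8 in Sycp3 (89.8 CPM), had Cdc25c at 31.05 CPM, with Ccna1 at 264 and Cdk1 at 33.0. Its Cdc25c lay below that of cluster 8 beyond counting error in A0 (28.6 against 42.0 CPM), but the intervals overlapped in A10 (35.2 against 43.4). Of the 8 members other than the rare Ccna2 and Ccnb3, only Cdc25c was higher in spermatid-like than in spermatocyte-like cells of A0 (26.4 against 12.6 CPM). The same held in A10 (29.1 against 14.7) and BA10. Some class names were close calls. Marker scores for spermatid and spermatocyte were 0.209 and 0.154 in cluster 8, and 0.101 and 0.135 in cluster 0. At resolution 0.5 a cluster led by Tssk5, Gm21119 and Pax6, genes that also led cluster 2 or 8, was named spermatocyte-like (0.305 against 0.282). The cluster levels do not depend on the names, but the class contrast of Cdc25c may. In the spermatid-like clusters 5, 7 and 13, Ccna1 was between 20.8 and 28.6 CPM and Cdk1 between 5.9 and 6.6, far below the spermatocyte-like levels. Cdc25c was not, at 14.6 CPM in cluster 5 and 13.6 in cluster 13, though at 5.43 in cluster 7. Clusters 16 and 17, in which 50.7% and 23.3% of cells were called doublets, stood between the spermatocyte- and spermatid-like levels.

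**Figure D4:**
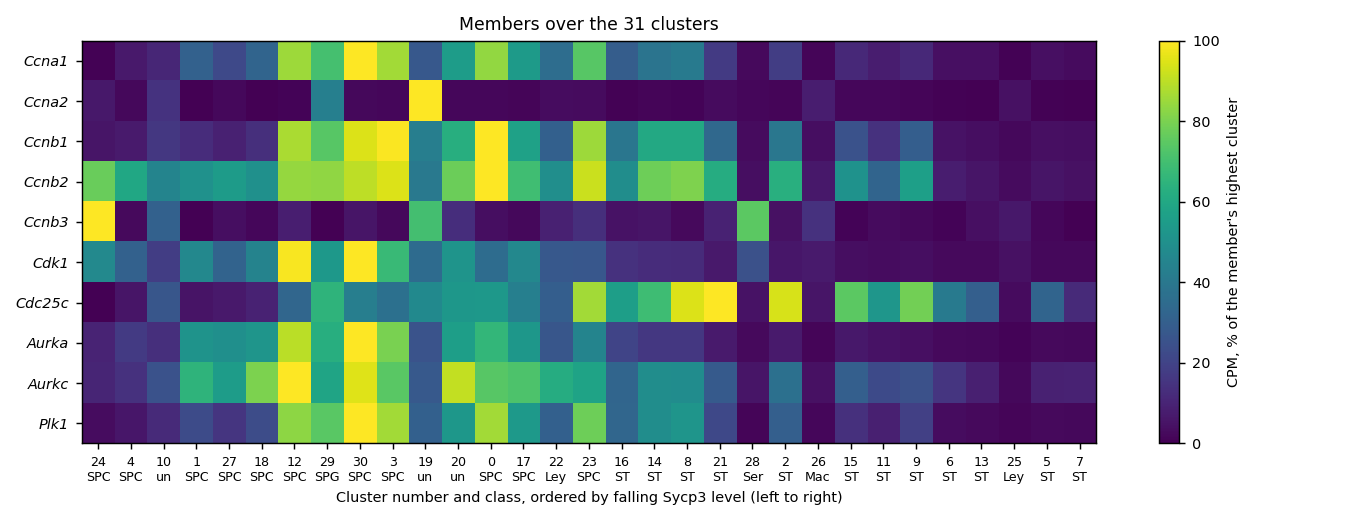
Colour gives the level (CPM) of each member in each of the 31 clusters as a percent of its highest cluster, with clusters ordered by falling Sycp3 level and marked by number and class (SPC spermatocyte-, SPG spermatogonia-, ST spermatid-, Ley Leydig-, Ser Sertoli-, Mac macrophage-like, un unnamed). In CPM, Ccnb2 is high from the first cluster in this order (24), and Cdk1 and Aurka peak in clusters 12 and 30. Cdc25c peaks in clusters 21, 8 and 2, and Ccna2 in cluster 19.

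With the libraries merged without alignment, the cells of BA10 formed clusters of their own with a like sequence of levels. Whether they would stay apart after alignment was not tested. Cluster 27 (Sycp3 at 394 CPM) held Aurka at 382 CPM, Ccna1 at 152 and Ccnb1 at 38.1. Cluster 30 (Sycp3 at 307 CPM, 1312 cells, all from BA10) had the highest level of all clusters for Aurka (769 CPM), Ccna1 (686), Plk1 (360) and Cdk1 (263), and the Cdk1 interval overlapped that of control cluster 12. Cluster 23 (Sycp3 at 161 CPM) held Cdk1 at only 71.5 CPM beside Ccnb1 at 360 and Ccnb2 at 487, as control cluster 0 did. Cluster 21, spermatid-like with 168 BA10 cells, had Cdc25c at 45.1 CPM, overlapping cluster 8. Since each of these clusters came almost wholly from 1 library, stage and library cannot be told apart in them.

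In B0, Ccnb1, Ccnb2, Cdk1 and Aurka lay above the Leydig-like level beyond counting error in each of the clusters 19, 20 and 24, and the other members did so in some of them only. Cluster 24, the spermatocyte-like one, had Ccnb2 at 408 CPM and Cdk1 at 123, but Ccna1 at 3.9, Plk1 at 11.8 and Cdc25c at 0 UMIs, which allows up to 2.94 CPM. It also had the highest Ccnb3 level of any cluster (5.88 CPM, 6 UMIs), which overlapped that of 6 other clusters. Cluster 20, of 544 B0 and 155 BA10 cells, stayed unnamed. Dcn and Gsn led it, and its marker score was highest for myoid cells (0.179, against 0.164 for spermatocytes) with 0 myoid markers counted as detected. Its B0 cells carried most members far above the Leydig-like level, though Ccna1, Ccnb1, Ccnb2, Aurka and Plk1 stayed below control clusters 3 and 0. They had Ccna1 at 364 CPM, Ccnb1 at 303, Ccnb2 at 440, Aurka at 399, Plk1 at 185 and Cdk1 at 128. Of the cells of cluster 20, 0.279% were called doublets, and whether these barcodes held more than 1 cell or free RNA was not tested further. Cluster 19, of 388 B0 and 46 BA10 cells and led by a mix of germ cell, endothelial and macrophage genes, had the highest Ccna2 level of all clusters (61.4 CPM).

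Cluster 19 was resolved at resolution 2, where a spermatogonia-like cluster of 250 B0 and 12 BA10 cells appeared, led by Stra8 and Crabp1 among others. In its B0 cells Ccna2 stood at 108 CPM (95% interval 89.3 to 130, 115 UMIs), against 2.5 CPM in Leydig-like cells of B0. Ccnb1 stood there at 143 CPM, Ccnb2 at 143, Cdk1 at 51.7, Aurka at 50.8 and Plk1 at 40.4, while Ccna1 was at 16.0. The proliferation genes Mki67 (160 CPM against 5.3 in Leydig-like cells) and Top2a (533 against 20.9) were also high. Of the S phase and proliferation list read further on, only Ccnd3 was lower than in Leydig-like cells (54.6 against 161 CPM). The spermatogonial marker Kit was lower as well (70.6 against 172). In these B0 cells Ccna2 was thus high where Ccna1 was low. Among clusters with at least 50 cells of a control library, Ccna2 was highest in the unnamed cluster 10, led by Esco2 and Stra8 among others, at 8.10 CPM in A0 and 10.3 in A10 (34 UMIs in each), against 0.732 and 0.634 in their spermatocyte-like cells. Ccna1 stood at 58.1 and 92.7 CPM in cluster 10, of which 32.2% of cells were called doublets. The 12 BA10 cells had Ccna2 at 156 CPM on 20 UMIs and Ccna1 at 70.4 on 9. The 63 cells of cluster 29, named spermatogonia-like at the main resolution and nearly all from BA10, had Stra8 at 126 CPM and Ccna2 at 26.4 CPM, but also Ccna1 at 483 CPM, far above the 16.0 CPM of the B0 cells at resolution 2, which had Stra8 at 608 CPM and Sycp3 at 360 against 310 in cluster 29.

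Shares of cells with a UMI were compared after thinning every cell to 2900 UMIs, which left out 0 cells. A UMI of Aurka was found in 70.5% of spermatocyte-like cells of A0, 69.4% in both A10 and BA10, and 20.5% in B0. Cdk1 was found in 29.9%, 28.6%, 29.5% and 31.4%, so B0 did not stand apart, and Ccnb2 in 70.0%, 68.9%, 66.1% and 67.5%. Ccna1 was found in 67.4% of these cells in A0, 64.4% in A10, only 4.02% in B0, and 62.0% in BA10. For Plk1 the shares were 47.5%, 43.5%, 2.68% and 44.1% in the same order. Without thinning the Cdk1 shares were 73.3%, 70.7%, 51.3% and 82.1%, at median depths of 11873, 11119, 5192 and 19436 UMIs.

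As a measure of free RNA, Leydig-like cells of B0 (median 4054 UMIs) gave 1.42% for Ccna1, 3.14% for Cdk1, 1.85% for Aurka and 4.10% for Ccnb2. These cells included 37 of cluster 22, in which Leydig and germ cell genes occurred together. The 2986 B0 cells of cluster 25 alone gave 0.971%, 3.05%, 1.44% and 3.48%, so the class values are not of free RNA only. The 198 Sertoli-like cells of B0 (median 3971 UMIs) gave 1.52%, 16.2%, 2.02% and 3.03% for the same genes, so their Cdk1 share stood well above the Leydig-like one. Their Cdk1 level was 61.8 CPM, and its interval overlapped those of the B0 cells of cluster 19 (55.2 CPM) and of the spermatogonia-like cells at resolution 2. In A0 the late spermatid-like clusters 5, 7 and 13 gave 6.96 to 7.93% for Ccna1 and 0.826 to 1.77% for Cdk1. The 118 Leydig-like cells of BA10 gave 30.5% for Ccna1 and 37.3% for Aurka, far above those of B0. Most of them lay in cluster 22, where Insl3, the Leydig hormone gene, stood at 3047 CPM beside Sycp3 at 172. The share of Ccna2 in spermatocyte-like cells (0.31 to 0.89%) was near the Leydig-like share of B0 (0.76%), a value that need not hold for the other libraries. In A0 its share was 0.342% in spermatocyte-like and 0.146% in spermatid-like cells, with overlapping intervals. No expression of Ccna2 is read from these shares, and Ccnb3 had at most 1.79% in any library.

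**Figure D5:**
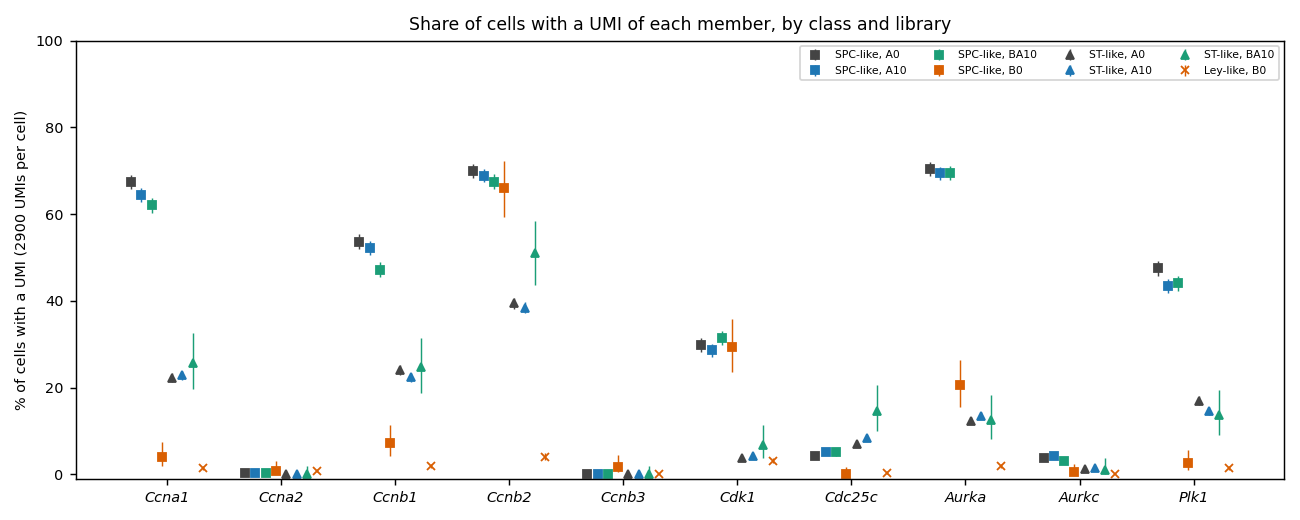
Points give the percent of cells with at least 1 UMI of each member after thinning to 2900 UMIs per cell, with exact 95% binomial intervals, for spermatocyte-like (SPC, squares) and spermatid-like (ST, triangles) cells of each library and for Leydig-like cells of B0 (crosses), colours marking the library. Shares in spermatocyte-like cells of A0, A10 and BA10 lie close together (Ccnb1, the widest apart, from 47.2% to 53.7%), and Cdk1 and Ccnb2 of B0 lie with them.

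Some members were found more often in cells that held Cdk1. Among thinned spermatocyte-like cells of A0, a UMI of Aurka was found in 77.4% of the 960 cells with a UMI of Cdk1 and in 67.5% of the 2255 without, and their intervals did not overlap. For Ccna1 the shares were 73.2% and 64.9%, for Plk1 53.0% and 45.2% and for Ccnb1 57.7% and 51.9%. In BA10 the shares for Ccna1 were 71.9% and 57.6%, and for Aurka 76.0% and 66.4%. The intervals overlapped in A0 for the other 5 members, among them Ccnb2 (72.1% and 69.1%) and Aurkc (4.06% and 3.77%). Cdc25c was found in 3.54% of A0 cells with Cdk1 against 4.48% without, while A10 gave 5.56% against 5.12% and BA10 gave 3.89% against 5.62%, with overlapping intervals in each. In B0, with 66 cells that held Cdk1, the intervals of all members overlapped, with Aurka at 21.2% against 20.3%, Ccnb2 at 63.6% against 67.1% and Ccna1 at 1.52% against 5.06%. The class pools clusters that differ in these shares. In A0, Cdk1 and Aurka were found in 48.0% and 86.1% of cluster 12, 24.8% and 26.6% of cluster 4, and 23.0% and 75.9% of cluster 0. The part of this cluster mix in the differences was not tested.

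Over the 31 clusters, Pearson's r between log2 levels of members was highest for Ccnb1 and Plk1 (0.98), Ccna1 and Plk1 (0.96) and Ccna1 and Aurkc (0.94). It was lowest for Ccnb3 and Cdc25c (-0.36) and was -0.15 for Cdk1 and Cdc25c and 0.01 for Ccna1 and Ccna2. The clusters share libraries and differ in depth, so these values describe the clusters only. Among all genes that reached 10 CPM in a cluster, the 3 closest to each member were as follows. Ccnb1 was closest to Plk1, Bora, which encodes a cofactor that lets Aurka activate Plk1, and Ankrd13c (r from 0.97 to 0.98). Plk1 was closest to Agtr1a, Ccnb1 and Fa2h (0.97 to 0.98), and Cdk1 to Fam134a, Cdkn2d, a cell cycle inhibitor, and Tpx2, which encodes a spindle protein that activates Aurka (0.96 to 0.97). Ccna1 was closest to Arc, Tcte1 and Pdzd9 (0.98), Ccnb2 to Rpl10l, Larp7 and Dll3 (0.98) and Aurka to Mapk8ip2, Kdm4d and Ppp1r13l (0.98 to 0.99). Aurkc was closest to 4931406B18Rik, Mesp1 and Izumo4 (0.97), and Cdc25c to 1700012P22Rik, Ribc1 and BC061237 (0.94 to 0.95). Ccna2 was closest to Cdca7, Dusp9 and Pdxp (0.95 to 0.96), and Ccnb3, which never passed 5.88 CPM, to Plekhh1, Trim6 and Ahr (0.86 to 0.87).

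Other division genes were read from 4 lists. Of 22 measured genes for entry into division (Wee2 was not analysed here), 21 passed the level filter. In spermatocyte-like cells of BA10 against A0, 0 were 2-fold higher and 2 lower, beside 3.94% and 5.22% of all genes tested, a share that applies to the lists that follow as well. The lower ones were Mybl1, a transcription factor of pachytene (30.7 against 64.8 CPM, log2 ratio -1.05), and Eif4g3, a translation factor needed for meiotic exit from prophase (94.6 against 194, -1.03). Hspa2, a chaperone needed for active Cdk1 in spermatocytes, stood at 1113 against 1298 CPM and Spdya, a Cdk activator, at 250 against 338 CPM. These 2 and Eif4g3 were the highest of the list in A0 over all cells.

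Of the 23 spindle and checkpoint genes, 1 was higher and 3 lower in the same comparison, with a list median of -0.39 against 0.06 over all genes tested. Lower were Cenpe, a kinetochore motor (75.8 against 185 CPM, -1.27), Sgol2a, a protector of centromeric cohesion (37.5 against 87.0 CPM, -1.19), and Gsg2, the haspin kinase (382 against 823 CPM, -1.11). Cenpa, the centromeric histone, was higher at 1.72 against 0.22 CPM (1.16). Over all cells of A0, Gsg2, Cenpf and Kif2c were the highest of the list. In spermatocyte-like cells of BA10 against A0, Cenpf stood at 226 against 428 CPM (-0.92) and Kif2c at 40.2 against 69.4 (-0.77). Of the 23 genes, 5 had a ratio above 0.

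Of the 19 tested genes of the anaphase promoting complex and exit from division, 0 passed 2-fold between BA10 and A0 in these cells (median 0.07). Over all cells of A0 the 3 highest genes of this list were Ube2s, an enzyme of that complex, Pttg1, the securin, and Cdc20, an activator. In spermatocyte-like cells they stood at 2566 against 2375, 471 against 470 and 388 against 410 CPM. Of the 17 S phase and proliferation genes, 0 were higher and 2 lower, Mki67 (3.11 against 7.90 CPM, -1.11) and Top2a (57.0 against 120, -1.06). The highest of this list over all cells of A0, Ccnd3, Pcna and Mcm7, had log2 ratios of -0.25, -0.01 and -0.10 in spermatocyte-like cells. Over all cells, 10 of these 17 were 2-fold higher in B0 than in A0 and 0 lower, with a median of 1.61, beside 43.5% higher, 19.9% lower and a median of 0.58 over all genes tested. The spindle list had a median of -0.56 there, with 3 of 23 higher and 4 lower. In that comparison Ccna2 and Ccnb3 (the latter below the level filter) had positive ratios and the other 8 members negative ones. The median over all genes tested and that of the division entry list (0.23) were positive as well, so a positive sign does not mark the S phase list.

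A continuous order by diffusion pseudotime, planned as a stage axis, did not follow development here, since late spermatid-like clusters came before late spermatocyte-like ones. In its 10 bins, 7 members (Ccna1, Ccnb1, Ccnb2, Cdk1, Aurka, Aurkc and Plk1) had their highest level in bin 9, Cdc25c in bin 6 and Ccna2 and Ccnb3 in bin 1. Along the first principal component, where Sycp3 fell from 413 to 16.8 CPM over the bins, Ccna1, Ccnb1, Cdk1, Aurka, Aurkc and Plk1 were highest in bin 3, Ccnb2 in bin 4 and Cdc25c in bin 6. Its bin 1 held 1858 cells of BA10 and 224 of B0 beside 75 of A0 and 24 of A10, and its bin 10 held 0 of BA10. Stage and library therefore cannot be told apart along this component.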

How the data were processed

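Testis cells of 4 libraries (A0, A10, B0 and BA10, 1 per group, 6 mice pooled in each) were counted by the authors with Cell Ranger 2.2.0 on mm10, and cells with under 200 genes and genes in under 3 cells were removed with Seurat, per the study's methods. These also name a forced 5000 cells per library, which the cell numbers of the table do not match. In the deposited table the authors' values are natural logs, of UMIs scaled to 10000 per cell with 1 added. UMIs were recovered from them (100% of values above 0 whole within 0.001). The 4 groups were mapped from the labels. UMIs were summed and scaled to 1000000 (CPM), and log2 ratios have 1 CPM added. Ratios were compared with a 2-fold limit among genes with a mean of at least 1 CPM over the libraries. Cells were clustered with scanpy 1.11.5 (2000 variable genes without the members and lists, 30 components, 15 neighbours, Leiden resolution 1). The libraries were merged for this without alignment. Clusters were named from marker genes, and clusters led by Dcn or Gsn stayed unnamed, a rule set after seeing them. Doublets called by Scrublet (8.06% and 8.66% in A0 and A10, 0.0859% in B0, 1.27% in BA10) were kept. Shares were taken after thinning to 2900 UMIs per cell. Classes were compared where both libraries held at least 50 cells. Intervals are exact 95% Poisson or binomial (Clopper-Pearson) ones, and cover counting error only. Zero counts were read as allowing up to 3 UMIs. The ratio calculation was tested on simulated data.

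The members, the gene lists and the tests were chosen with earlier results of these data known. The genes named were all 10 members, the 3 genes most like each over clusters, and in each list the 3 largest rises and falls past 2-fold in spermatocyte-like cells of BA10 against A0 and the 3 highest genes over all cells of A0. Alternatives were a common UMI limit, 10 CPM added, equal weight per cell, no called doublets, thinning, centring, a limit of 1.5-fold, no filter, other resolutions (0.5 and 2), 1000 variable genes, and, added after seeing the data, leaving out somatic-like cells. Coordinates are from GENCODE M21. No bases of Cdc25c are shown, and its position is not reported here.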

Additional observations from a re-analysis of the deposited data

Results flagged for a closer look

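In 3 members the log2 ratio of AOS over no AOS had opposite signs without busulfan (A10 over A0) and with it (BA10 over B0), each with a counting interval that left out 0. Ccna1 had -0.04 and 1.86, a difference of 1.90. Ccnb1 had -0.10 and 1.18, a difference of 1.28. Plk1 had -0.20 and 1.78, a difference of 1.97. These differences between pairs of single libraries were not tested. Beside them, somatic-like cells made up 75.0% of B0 and 3.39% of BA10, and above the common UMI limit the BA10 over B0 ratios were 0.37, -0.17 and 0.40. The part of the cell mix and of depth in the difference was not tested further. With 1 library per group, no library could be examined as an outlier.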

How the results depend on the processing

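No paired analysis was possible because each group was 1 library, and for the same reason no replicate could be left out. Of 166 recomputed counts of members past 2-fold, 138 stayed within 1.5 times the value reported. Of 830 recomputed log2 ratios, 262 moved beyond their counting interval without being counted as sign changes and 15 were counted as such, 73 of 80 shares of a library's cells with a UMI moved with the thinning depth, and 17 of 20 highest bins moved with the order or the number of bins. A sign change was counted only for ratios past 2-fold whose counting interval left out 0, and the 2-fold condition was added after the values were seen. Another 30 recomputed ratios changed sign from a smaller value that also lay beyond counting error. Of these, Ccnb1, Ccnb2, Cdk1, Cdc25c and Aurka of B0 over A0 turned positive both above the common UMI limit and without somatic-like cells, Cdc25c and Aurkc of BA10 over B0 turned negative in both, and in spermatocyte-like cells of BA10 over A0 Ccna1 went from -0.12 to 0.059 and Cdc25c from 0.23 to -0.23 at resolution 0.5.

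Over all cells, B0 over A0 had 2 lower members as reported, 0 above the common UMI limit or without somatic-like cells, and 6 with equal weight per cell, with thinning to 2900 UMIs, after centring on the median ratio or at a 1.5-fold limit. Its 1 higher member became 0 with 10 CPM added. Above the common limit Ccna1 (0.33) and Plk1 (0.11) turned positive, and Ccna1 also did without somatic-like cells (0.048). BA10 over B0 had 6 higher members as reported and 0 above the common limit or without somatic-like cells, and its 1 lower member became 0 above the common limit, with 10 CPM added and after centring. Above the common limit Ccna2 (0.55), Ccnb1 (-0.17) and Ccnb2 (-0.0746) changed sign, and Ccnb1 came to -0.0041 without somatic-like cells. BA10 over A0 had 2 higher members as reported, 1 with 10 CPM added, 0 after centring and 5 at a 1.5-fold limit.

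In spermatocyte-like cells, the 1 higher member of B0 over A0 became 0 above the common limit, with 10 CPM added, with thinning, at resolutions 0.5 and 2 and with 1000 variable genes, and its 5 lower members became 0 at resolution 2 and with 1000 variable genes. Cdc25c then stood at 0.76 and 0.64, and Ccnb3 at -0.19 above the common limit. BA10 over B0 went from 5 higher members to 0 at resolution 2 and with 1000 variable genes, where Ccnb1 stood at -0.27 and -0.14 and Cdc25c at -0.44 and -0.78. Ccnb3 turned to 0.45 above the common limit, and with equal weight per cell 1 member was lower. In spermatid-like cells, BA10 over A0 had 1 higher member with thinning and 2 with 1000 variable genes, and at resolution 0.5 BA10 had under 50 such cells, so no value was given. What lies behind these shifts was not tested beyond the change of cells that each setting makes. B0, the shallowest library, limits what can be seen of Cdc25c, Ccnb3 and Aurkc.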
